A study of Mus musculus with 13 samples.

Results

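The results concern 4 of the 1079 mouse miRNAs on the array, mmu-miR-1224-5p, mmu-miR-711, mmu-miR-3096-5p and mmu-miR-5103. They were chosen by their measured values in these same tumors, as large falls under the curcumin diet outside the miRNAs of GU-repeat sequence and the melanocyte miRNAs. Their difference between the diets is therefore given as a description, without a test. What the choice did not use is the ratio between their probes, their spread among tumors of one diet, their sequence and their relatives. The probes make up the values that were chosen on, so the fall read by each probe is a description as well.

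The arrays were hybridized with RNA of 13 flank tumors of male C57BL/6 mice, 7 from the group fed chow with 4% curcumin and 6 from the group fed standard chow, called control. Curcumin is the yellow compound of turmeric. All mice received a subcutaneous injection of B78H1 cells, an amelanotic melanoma line derived from mouse B16 melanoma, with the diet beginning 14 days earlier and the tumors measured over 28 days. Cells were injected into both flanks, and the labels do not tie tumors to mice, so p-values measure the spread between these tumors. A flank tumor holds cells of the host beside the injected line, and every tumor rests on that one line. Control tumors all lay in the first line of positions on both slides and curcumin tumors in the second, so position and diet cannot be told apart.

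A miRNA is cut from a hairpin-shaped transcript and guides an Argonaute protein to messenger RNAs, which it recognizes mainly through its seed, bases 2 to 8 from the 5′ end. Most hairpins are first released from a long transcript by Drosha, whereas a mirtron is a short intron that becomes the hairpin once it is spliced out. mmu-miR-1224 is a mirtron, as are mmu-miR-702 and mmu-miR-877.

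Mature sequences were found in RefSeq for 3 of the 4 miRNAs. They are shown because the seed decides which messages a miRNA can recognize, and the capitals mark it.
mmu-miR-1224-5p: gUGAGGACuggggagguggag
mmu-miR-711: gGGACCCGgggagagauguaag
mmu-miR-5103: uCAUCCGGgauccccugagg

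The 3 seeds differ from each other, and no other of the 875 array miRNAs with a matched sequence carries any of them. On GRCm38.p6, mmu-miR-1224-5p lies at chr16:20604452-20604472 on the plus strand, inside Vwa5b2. mmu-miR-711 lies at chr9:108969970-108969991 on the plus strand, inside Col7a1, which encodes type VII collagen of the anchoring fibrils below the epidermis. mmu-miR-5103 lies at chr1:34433130-34433149 on the minus strand, where the gene table lists no overlapping gene. The mature sequences are 66.7%, 63.6% and 65.0% G and C. Their longest shared run was GGGGAG, held by mmu-miR-1224-5p and mmu-miR-711 and by 0.571% of the 875 sequences.

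The hairpin of mmu-miR-1224 is shown whole, with the mature 5p arm in capitals, because its ends are those of an intron. It spans chr16:20604452-20604536, begins with the GU of a 5′ splice site, which here is also the start of the miRNA, and ends with AG.
Mir1224 hairpin: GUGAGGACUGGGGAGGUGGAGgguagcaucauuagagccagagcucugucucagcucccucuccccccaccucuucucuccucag

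On the log2 scale of the deposited, quantile-normalized values, the level of mmu-miR-1224-5p had a median of 9.52 in curcumin tumors (lowest 8.90, highest 11.10) and of 11.27 in controls (lowest 11.10, highest 11.80). The difference between the medians was −1.74, and the means were 9.69 ± 0.69 (SD, n = 7) and 11.33 ± 0.28 (SD, n = 6). Of the curcumin tumors 6 lay at 9.91 or below, and curcumin tumor 5 was level with control tumors 1 and 2. As the tumors are bulk tissue, fewer cells that make a miRNA and less of it per cell cannot be told apart, here and for the other 3.

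The array of curcumin tumor 5 gave the lowest summed signal of all, 114095, against 150272 to 281508 on the others, and 272 detected mouse miRNAs against 352 to 370 on the other curcumin arrays. Before normalization between arrays, the total signal of mmu-miR-1224-5p in this tumor was 827, inside the range of the other curcumin tumors (654 to 983). On that scale all curcumin tumors lay below all controls, which spanned 1241 to 4374 with a median of 1843 against 805. Divided by the 75th percentile of the miRNAs detected on all arrays, the value of curcumin tumor 5 exceeded the lowest control by 0.40 on the log2 scale. Whether this tumor is apart from the others of its diet thus depended on the scaling of its array. Without it, limma's mean difference of the quantile-normalized sums moved from −1.65 to −1.89.

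The level of mmu-miR-3096-5p separated the diets on both scales. Deposited log2 values ran from 4.96 to 6.13 in curcumin tumors (median 5.06, mean 5.39 ± 0.52, SD, n = 7) and from 6.72 to 9.16 in controls (median 7.55, mean 7.58 ± 0.86, SD, n = 6). The medians differed by −2.49, the largest fall among the miRNAs outside both excluded classes. Total signals before normalization ran from 12.2 to 71.5 under curcumin and from 79.5 to 853 in controls, 5.09-fold apart by medians. Curcumin tumors 4 and 7 were the highest of their diet, at 71.5 and 70.5, with the other 5 at 30.7 or below.

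mmu-miR-711 was detected by the Feature Extraction software on all 6 control arrays and on 1 of 7 curcumin arrays, that of tumor 4. Deposited log2 values ran from 0.04 to 2.81 under curcumin (median 0.89, mean 1.12 ± 0.94, SD, n = 7) and from 2.79 to 3.60 in controls (median 3.07, mean 3.08 ± 0.29, SD, n = 6), a difference between medians of −2.17. Tumor 4 lay just above the lowest control, so the diets overlapped. The deposited value holds the detected probes where a miRNA is detected and all its probes elsewhere, hence 1 probe in the 7 tumors with detection and 4 in the other 6. With all 4 probes summed in every tumor, the sum was negative in all 7 curcumin tumors (−4.15 to −0.98) and in control tumors 1 and 6 (−1.35 and −0.28). The size of the fall of mmu-miR-711 thus rests on signals at the background.

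mmu-miR-5103 showed the same detection, on all 6 control arrays and on curcumin array 4. Its deposited log2 values ran from 2.57 to 3.30 under curcumin (median 2.87, mean 2.92 ± 0.23, SD, n = 7) and from 3.96 to 5.97 in controls (median 4.36, mean 4.59 ± 0.75, SD, n = 6). The medians differed by −1.49 and the diets did not overlap. The probes behind these values varied too. They were the second alone in control tumors 1, 3, 4 and 6 and curcumin tumor 4, and both in the others. With both probes summed in every tumor, the sum was at most 4.84 under curcumin and at least 8.01 in controls. Total signals were at most 4.28 in curcumin tumors and at least 6.49 in controls. The deposited values carry an added constant of 4.39 before log2, which compresses differences between signals as low as those of mmu-miR-711 and mmu-miR-5103.

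**Figure D1:**
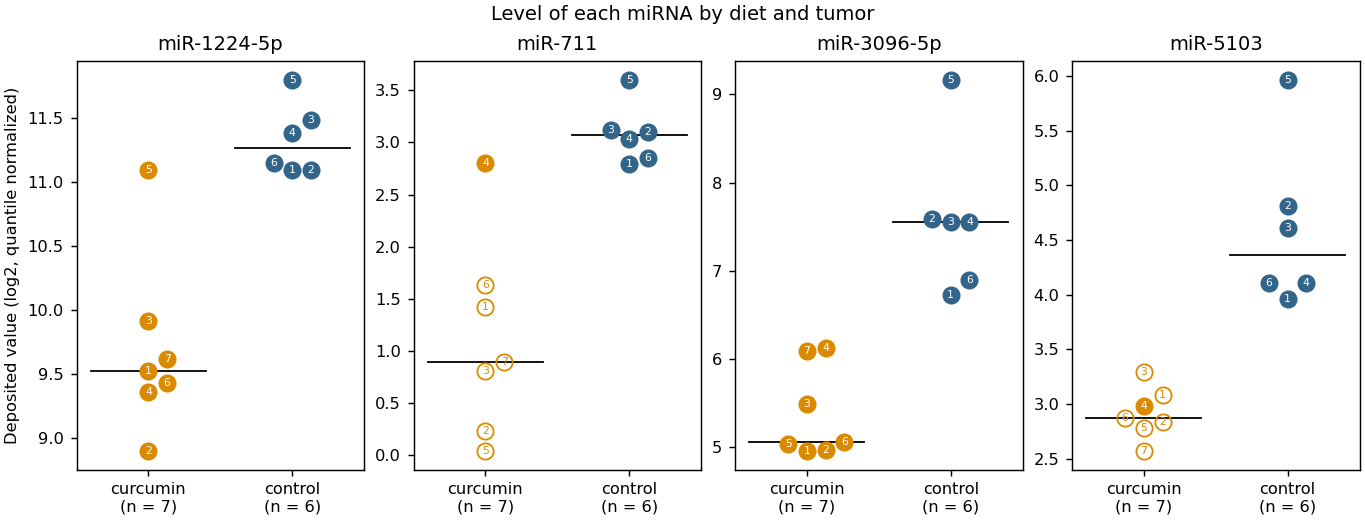
Deposited log2 values of the 4 miRNAs by diet, 1 point per tumor with the tumor's number inside, filled where the miRNA was detected on that array and open where not, with the median as a line. Control tumor 5 is the highest control in all 4 panels, curcumin tumor 5 is level with the lowest controls for mmu-miR-1224-5p, and curcumin tumor 4 is the only filled curcumin point for mmu-miR-711 and mmu-miR-5103.

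Across all 1079 miRNAs, limma, a linear model whose spread is shared between features, called 81 lower (7.51%) and 90 higher (8.34%) under curcumin at an adjusted p below 0.05. All 4 miRNAs are among the 81, which their selection on this contrast provides for. Scaling every array to the 75th percentile of all miRNAs gave 32 lower and 73 higher, and no normalization 39 lower and 10 higher. Among 243 miRNAs with detection in every tumor the median difference was −0.09 for the quantile-normalized sums and −0.26 without normalization, so each fall is also to be read against that shift. No overlap between the diets in the lower direction was seen for 1.76% of the 1079 miRNAs on the deposited values, 2 of the 4 among them (mmu-miR-3096-5p and mmu-miR-5103). On total signals before normalization it was seen for 2.97%, with mmu-miR-1224-5p as the third of the 4.

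Within each slide the falls had the same direction. The difference between deposited medians of mmu-miR-1224-5p was −1.57 on slide 1 (3 curcumin and 2 control tumors) and −1.91 on slide 2 (4 of each). It was −2.18 and −1.97 for mmu-miR-3096-5p. For mmu-miR-711 it was −2.13 and −1.81. For mmu-miR-5103 it was −1.30 and −1.53.

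By this measure the 4 are not simply the largest falls outside the excluded classes. mmu-miR-3096-5p and mmu-miR-711 came first and second, mmu-miR-1224-5p seventh and mmu-miR-5103 sixteenth, with 12 unchosen miRNAs at least as far down as mmu-miR-5103. Among those between, mmu-miR-130b-3p differed by −2.04, mmu-miR-468-3p by −1.95 and mmu-miR-32-3p by −1.93. mmu-miR-1199-5p, at −1.94, was detected on no array. The next above mmu-miR-5103 was mmu-miR-2137 at −1.50, and the next below it was mmu-miR-3096b-5p at −1.44.

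The fall of mmu-miR-1224-5p was seen by both of its probes. Each was printed in 20 spots, of which 19 or 20 were well above background on every array. The first probe read 173 to 275 under curcumin and 327 to 1245 in controls, and the second 472 to 708 and 914 to 3129. By either probe the diets did not overlap, and the medians were 2.46-fold and 2.23-fold apart. The ratio of the second signal to the first, which depends on the probes as well as on the RNA, stayed between 2.33 and 3.05 over the 13 tumors.

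Both probes of mmu-miR-3096-5p also separated the diets. The first read 5.00 to 33.4 under curcumin and 35.5 to 406 in controls, and the second 7.17 to 41.4 and 44.0 to 447. By either probe the gap was narrow, with the lowest control 1.06-fold above the highest curcumin tumor. The ratio of the second signal to the first was above 1 in every tumor and did not exceed 1.43.

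The signal of mmu-miR-711 came from 1 of its 4 probes. The other 3 were negative on all 13 arrays, with none of their 10 spots above background on any. The fourth probe read −0.46 to 2.51 under curcumin and 1.90 to 17.8 in controls. It had spots above background on 5 of 6 control arrays, and under curcumin on that of tumor 4 alone, with 4 spots of 10. The control range without tumor 5 ended at 5.90. No agreement between probes can therefore be given for mmu-miR-711.

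Of the 2 probes of mmu-miR-5103, the second separated the diets, at −0.04 to 3.72 under curcumin and 6.49 to 90.9 in controls. Between 12 and 20 of its 20 spots were above background on control arrays, and at most 1 on any curcumin array. The first probe read 0.05 to 1.90 and 1.52 to 19.6, so that its ranges overlapped, and it had spots above background on 2 of 6 control arrays and on none under curcumin. In controls the ratio of the second to the first lay between 3.86 and 4.65. No spot of any of these probes was saturated.

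**Figure D2:**
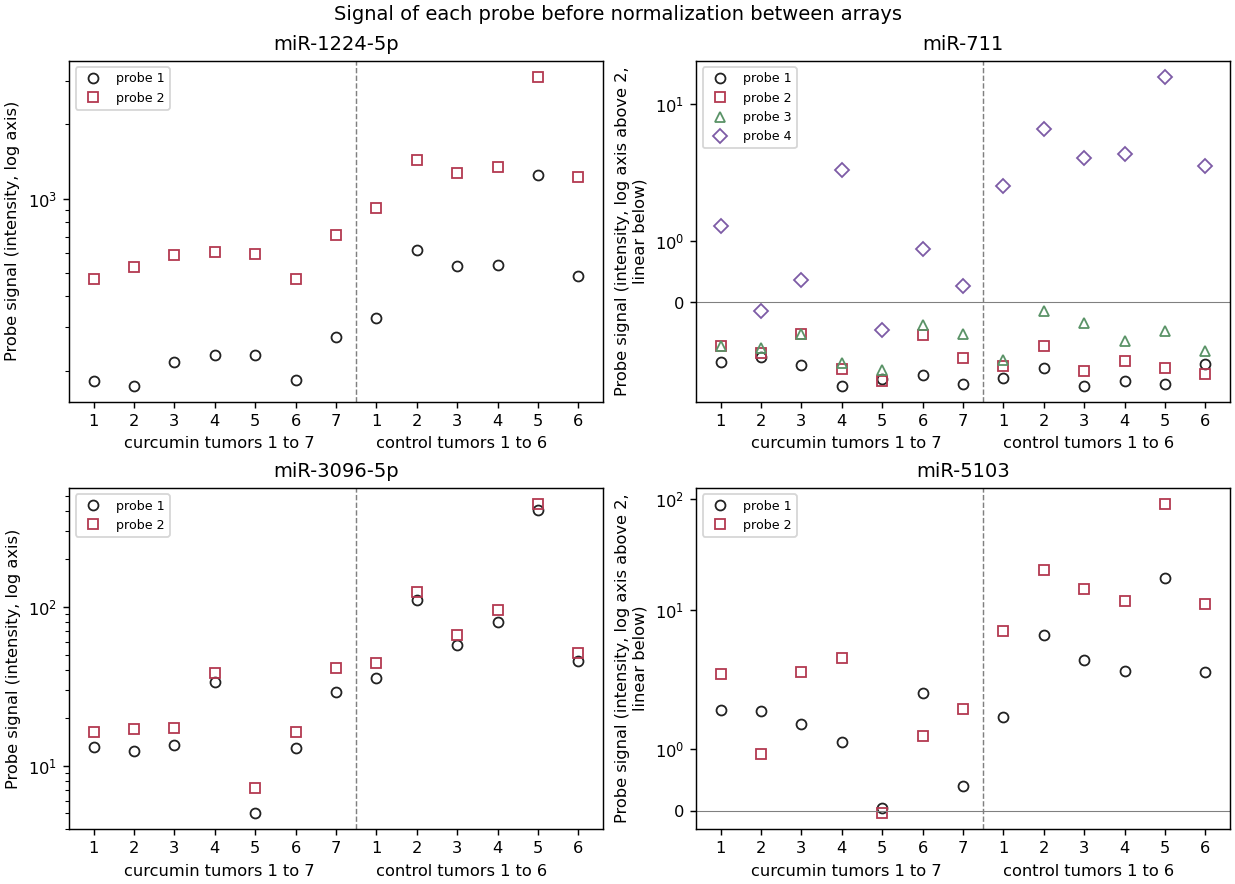
Signal of each probe of the 4 miRNAs on each array before normalization, in intensity units on a log axis (for mmu-miR-711 and mmu-miR-5103 linear below 2, since values reach below 0), with curcumin tumors left and control tumors right of the dashed line. The probes of mmu-miR-1224-5p and mmu-miR-3096-5p move in parallel, while 3 of the 4 probes of mmu-miR-711 stay below 0 on every array.

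Whether the 4 miRNAs vary together among tumors of one diet was tested on the deposited values with an exact permutation test over all pairings (two-sided), for 6 pairs in each of 2 diets, with p-values adjusted over the 12. In the 6 control tumors, mmu-miR-711, mmu-miR-3096-5p and mmu-miR-5103 rose and fell together. Pearson's r was 0.995 between mmu-miR-711 and mmu-miR-3096-5p (exact p = 0.0111, adjusted p = 0.0444; rho = 0.90, exact p = 0.0278, adjusted p = 0.111). It was 0.96 between mmu-miR-711 and mmu-miR-5103 (exact p = 0.0111, adjusted p = 0.0444), where rho was 0.93 (exact p = 0.0167, adjusted p = 0.10). Between mmu-miR-3096-5p and mmu-miR-5103 it was 0.95 (exact p = 0.0111, adjusted p = 0.0444), where rho was 0.96 (exact p = 0.0111, adjusted p = 0.10). By rank none of the 12 pairs passed after adjustment.

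Control tumor 5 held the highest value of all 3 and weighed on these correlations. Without it r was 0.98, 0.83 and 0.74 in the same order (exact p = 0.0667 for each) and rho was 0.82, 0.87 and 0.92. Without the 2 tumors farthest from the median of the first-named miRNA it was 0.96, 0.75 and 0.60 over 4 tumors. With any 1 control left out, no pair passed, and the smallest p that the exact test over 5 tumors allows is 0.0167. Were 3 pairs to reach it, their adjusted p would be 0.0667, so these 3 pairs could not pass by themselves. Over 4 tumors the smallest p is larger still. By Pearson's r the relation of mmu-miR-711 to mmu-miR-3096-5p moved least without tumor 5, whereas by rho it moved most.

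For mmu-miR-1224-5p the co-variation in controls did not pass on the deposited values. Its r was 0.88 with mmu-miR-711 (exact p = 0.0611, adjusted p = 0.183; rho = 0.75, exact p = 0.106, adjusted p = 0.317). It was 0.88 with mmu-miR-3096-5p (exact p = 0.0889, adjusted p = 0.213; rho = 0.53, exact p = 0.306, adjusted p = 0.524). With mmu-miR-5103 it was 0.77 (exact p = 0.128, adjusted p = 0.256; rho = 0.53, exact p = 0.272, adjusted p = 0.524). Without control tumor 5 these fell to 0.59, 0.58 and 0.16, and without the 2 tumors farthest from the median of mmu-miR-1224-5p to 0.35, 0.48 and −0.30. Which pairs passed depended on the scaling. With unnormalized sums and a floor of 1, mmu-miR-1224-5p passed with mmu-miR-3096-5p (r = 0.97) and with mmu-miR-5103 (r = 0.98), as did mmu-miR-3096-5p with mmu-miR-5103 (r = 0.97), each with an adjusted p of 0.025 by the exact permutation test. On that scale the pairs of mmu-miR-711, which lay at the floor in 4 of the 6 controls, lost their call with mmu-miR-3096-5p and mmu-miR-5103 (r = 0.94 for both, adjusted p = 0.10). By rank only 1 pair passed on it. The 3 curcumin pairs of mmu-miR-711, at the floor in every curcumin tumor, had no correlation there and were left out of the adjustment. Unnormalized sums still carry the signal level of each array, which any 2 miRNAs share, so these r are not of the pairs alone.

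In the 7 curcumin tumors no pair passed. Pearson's r ran from −0.41 for mmu-miR-1224-5p and mmu-miR-711 (exact p = 0.318, adjusted p = 0.477) to 0.51 for mmu-miR-711 and mmu-miR-3096-5p (exact p = 0.292, adjusted p = 0.477), and rho from −0.46 to 0.43, with the adjusted p at 0.524 or above for every rho. Without curcumin tumor 5 the r of −0.41 became 0.11. The tumor with the highest mmu-miR-711, tumor 4, also had the highest mmu-miR-3096-5p, but tumor 7, close behind it in mmu-miR-3096-5p, had the lowest mmu-miR-5103. As mmu-miR-711 and mmu-miR-5103 lay below detection on 6 of these arrays, their spread there is largely spread at the background. Whether the co-variation itself differed between the diets was not tested. No slide held more than 4 tumors of a diet, too few for a correlation within slides.

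**Figure D3:**
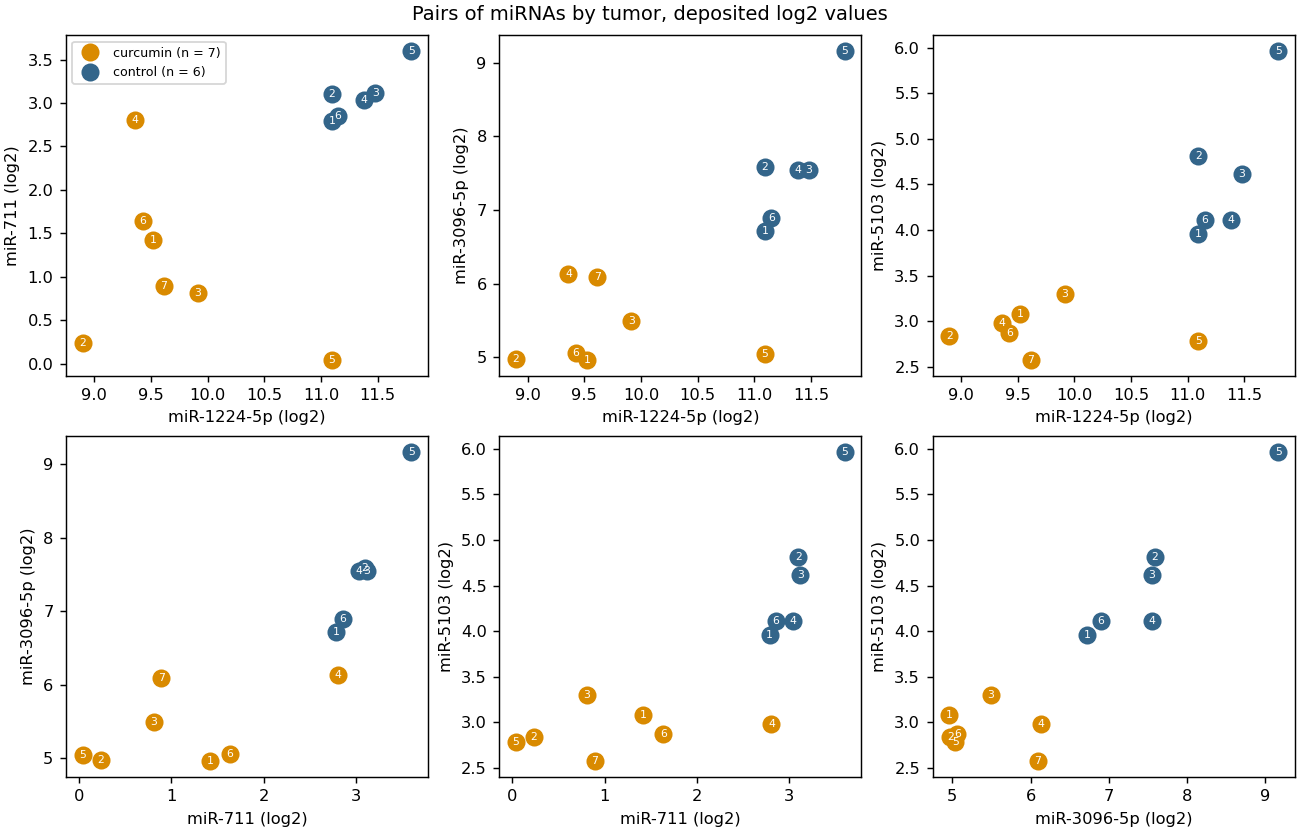
Deposited log2 values of each pair of the 4 miRNAs, 1 point per tumor numbered within its diet. In the lower row the 6 control tumors line up with tumor 5 at the upper end, while the 7 curcumin tumors show no common order.

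The amount of signal on an array was set beside the same miRNAs, and none of the 8 relations passed on the deposited values. In control tumors the number of mouse miRNAs detected (313 to 384, and 412 for tumor 5) correlated with mmu-miR-711 at r = 0.84 (rho 0.66), with mmu-miR-3096-5p at 0.85 (rho 0.90) and with mmu-miR-5103 at 0.86 (rho 0.81), each with an adjusted p of 0.148 by the exact permutation test over 8 relations (unadjusted exact p = 0.0528, 0.0389 and 0.0556; adjusted p for rho 0.35, 0.222 and 0.235). Without control tumor 5 these were 0.54, 0.60 and 0.63, and without the 2 tumors farthest from the median number 0.34, 0.48 and −0.04. Control tumor 5 also stood apart over all 243 miRNAs detected on all arrays, correlating with the other controls at 0.936 to 0.966 against 0.970 to 0.988 among those. On unnormalized sums with a floor of 1 the relation with the number detected passed in controls for mmu-miR-1224-5p (r = 0.91), mmu-miR-3096-5p (r = 0.94) and mmu-miR-5103 (r = 0.92), each with an adjusted p of 0.0324 by the exact permutation test. By rank none passed there, with an adjusted p of 0.0583 or above by the same test. On that scale mmu-miR-711 had no correlation in curcumin tumors and was left out of the adjustment. The part of control tumor 5 in the co-variation beyond the values given without it was not tested.

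In curcumin tumors the relation of mmu-miR-1224-5p with the number detected had r = −0.90 (exact p = 0.106, adjusted p = 0.170) and rho = −0.39 (exact p = 0.396, adjusted p = 0.622). With the summed signal of the array in place of the number it passed by Pearson's r, at −0.92 (exact p = 0.00198, adjusted p = 0.0159). By rank it did not pass (rho = −0.89, adjusted p = 0.0984). The deposited values are scaled between arrays, and before that scaling the signal of mmu-miR-1224-5p ran from 654 to 983 in these tumors. Its relation with the summed signal thus cannot be told apart from the scaling. On unnormalized sums with a floor of 1, r with the number detected was −0.21 (exact permutation test, adjusted p = 0.616). The r of −0.90 rested on curcumin tumor 5, since r was −0.21 without it and 0.76 without the 2 tumors farthest from the median number. The other curcumin relations had an adjusted p of 0.170 or above, from r = 0.13 for mmu-miR-5103 to 0.54 for mmu-miR-711.

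After the mean of each diet was taken off, the miRNAs detected on all 13 arrays whose pattern over the 13 tumors was most like that of mmu-miR-1224-5p were mmu-miR-3960 (r = 0.92), mmu-miR-5105 (0.88) and mmu-miR-34a-5p (0.87). For mmu-miR-5103 they were mmu-miR-2137 (0.87), mmu-miR-188-5p (0.87) and mmu-miR-1982-5p (0.81). For mmu-miR-3096-5p they were mmu-miR-32-3p (0.77), mmu-miR-1187 (0.76) and mmu-miR-468-3p (0.75). mmu-miR-711 had the weakest likeness, with mmu-miR-152-3p (0.62), mmu-miR-669n (0.61) and mmu-miR-468-3p (0.57). All points share arrays and their scaling, and the values are given as descriptions. Of these 11 miRNAs, 7 were called lower by limma and 1 higher, beside 21.4% lower and 20.2% higher among the 243 miRNAs from which they were taken. The difference was −1.73 on the log2 scale for mmu-miR-2137 and −1.72 for mmu-miR-188-5p (limma adjusted p = 0.00702 and 0.00840), and it was 1.32 for mmu-miR-152-3p (adjusted p = 0.00751).

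Among the relatives by name, mmu-miR-1224-3p, the other arm of the mirtron hairpin, was detected on no array, so nothing can be said of its level. mmu-miR-3096b-5p, a lettered copy of mmu-miR-3096-5p by its name, was detected on all 13 arrays. Its deposited log2 values ran from 3.35 to 4.23 under curcumin and from 4.39 to 5.83 in controls. In the limma fit of the quantile-normalized sums it differed by −1.60 on the log2 scale (SE 0.26, adjusted p = 0.00348). The fall was of like size on slide 1 (−1.33, adjusted p = 0.240) and slide 2 (−1.70, adjusted p = 0.198), where fewer tumors were left and the call was lost. After the normexp background correction, which adds 50 to each signal, the difference was −0.45 (adjusted p = 0.0120). Signal of one of these 2 miRNAs on the probes of the other cannot be told apart from its own.

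mmu-miR-3096b-3p, from the other arm of the same hairpin, ran from 9.28 to 10.44 under curcumin and from 9.13 to 10.70 in controls. It differed by −0.55 (SE 0.26), with a limma adjusted p of 0.207, and by −0.78 without control tumor 5 (adjusted p = 0.0283). The 5p minus 3p difference per tumor was −5.92 ± 0.31 (SD, n = 7) under curcumin and −5.12 ± 1.01 (SD, n = 6) in controls, and the change of −0.80 in this difference had an exact permutation p of 0.0478 (two-sided). On the log2 scale of the quantile-normalized sums it was −1.04 (exact p = 0.0175). Without control tumor 5 it was −0.43 (exact p = 0.104), and with any other single array left out it stayed between −1.03 and −0.73. The p exceeded 0.05 in 10 of the 13 cases with an array left out.

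The other mirtrons did not share the fall of mmu-miR-1224-5p at the test's threshold. mmu-miR-877-5p and mmu-miR-877-3p each differed by −0.36 (SE 0.16 and 0.13, limma adjusted p = 0.165 and 0.0893). mmu-miR-702 differed by 0.10 (SE 0.27, adjusted p = 1), a sign that turned with scaling. All 3 were detected on all 13 arrays. The difference between these values and that of mmu-miR-1224-5p was not tested, since the latter was selected for its fall.

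**Figure D4:**
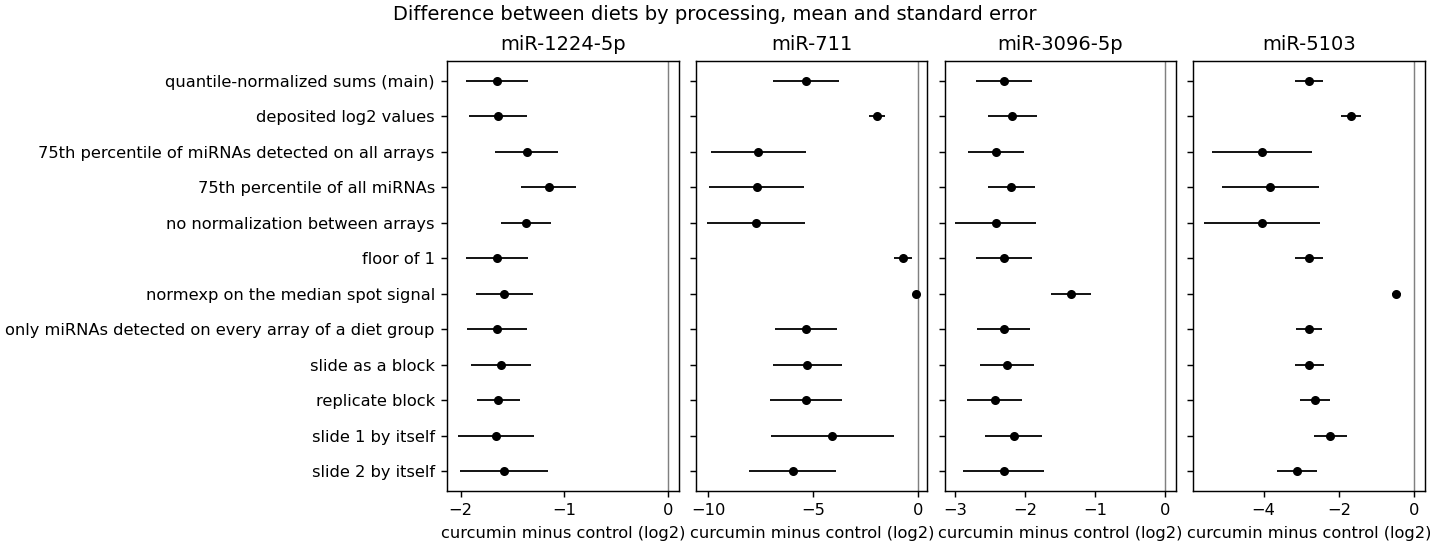
Mean difference between the diets (curcumin minus control, log2, with its standard error) of the 4 miRNAs under each way of processing, on a separate horizontal scale per panel. The values of mmu-miR-1224-5p stay between −1.66 and −1.15 in this plot, whereas those of mmu-miR-711 run from −7.75 to −0.09.

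The way the signals were processed set the size of the fall for mmu-miR-711 and mmu-miR-5103, whose signals lie near the background, more than for the other two. For mmu-miR-1224-5p the mean difference lay between −1.89 and −1.15 over all settings. For mmu-miR-3096-5p it lay between −2.48 and −2.03 with single arrays left out, and was −1.35 with the normexp background correction, which adds 50 to each signal. For mmu-miR-5103 it ran from −4.05 without normalization through −2.79 for the quantile-normalized sums to −1.68 on the deposited values and −0.47 after normexp. For mmu-miR-711 it ran from −7.75 through −5.35 and −1.96 to −0.71 with a floor of 1 and −0.09 after normexp. No setting turned the sign for any of the 4.

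All 3 matched sequences lie in the G and C rich part of the array. The remaining miRNA described here, with the largest fall between deposited medians, had no matched sequence and is not in the counts below. The sequence that the paper prints for it lies below 60% G and C, so the falls described here are not limited to rich sequences. Of the 875 miRNAs with a sequence, 166 were at least 60% G and C, of which 25 were called lower and 2 higher, with a median difference of −0.22. Among the other 709, 39 were lower and 80 higher, with a median of 0. Over all 875, 64 were lower and 82 higher. Without the 3 miRNAs described here, 22 of 163 remained lower. Among the 200 detected on all arrays, 16 of 50 rich sequences were lower and 2 higher (median −0.44), against 25 lower and 41 higher of 150 (median 0.09), and the correlation of G and C content with the difference was −0.34 (−0.36 without normalization). These miRNAs share arrays and are no replicates, and the part of base composition in the falls was not tested.

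**Figure D5:**
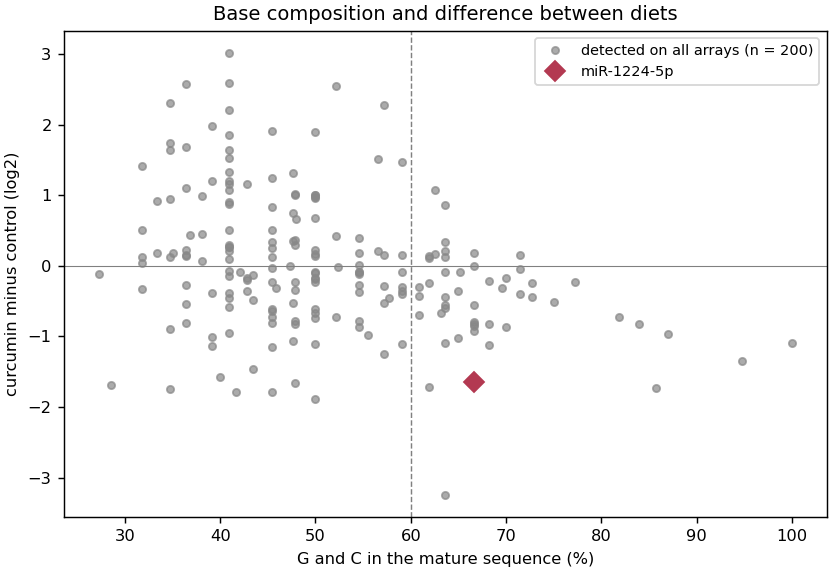
Share of G and C in the mature sequence (%) against the mean difference between the diets (curcumin minus control, log2) for the 200 miRNAs detected on all arrays with a matched sequence, with mmu-miR-1224-5p as a diamond and the 60% line dashed. Right of the line 40 of 50 points lie below 0, and left of it 71 of 150.

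Markers of host cell types, and of melanocytes, from which melanoma arises, were counted against the 8.34% higher and 7.51% lower of all 1079 miRNAs. Of 4 blood cell miRNAs all were higher under curcumin, with a summed normalized signal of 342 to 1347 against 84.4 to 286 in controls. Of 5 stromal miRNAs 2 were higher (498 to 1094 against 161 to 392), and of 5 skin epithelial miRNAs 1 was higher (218 to 1739 against 3.11 to 165), with the 3 members of the miR-200 family in that list detected on no array. Of 4 muscle miRNAs 1 was higher (29.1 to 962 against 23.3 to 607), and of 2 endothelial miRNAs none passed (254 to 820 against 137 to 281). Of the 2 melanocyte miRNAs 1 was lower (4.19 to 624 against 308 to 847). The part of cell composition in the falls of the 4 miRNAs was not tested.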

How the data were processed

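The 13 tumors were profiled on 1 array each and grouped by the diet in the labels. The authors hybridized RNA in 1 color to Agilent miRNA arrays and deposited the scanner's intensity values, made with Feature Extraction 10.10.1.1 (background-subtracted, summed over spots, not normalized). The authors also deposited log2 values, which were met within 1e-04 by summing the detected probes of detected miRNAs and every probe of the others, quantile normalizing, adding 4.39 and taking log2.

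For the comparison of diets, the signals of a miRNA's probes were summed for 1079 mouse miRNAs (57 virus miRNAs left out), quantile normalized, set to a floor of 0.00765 and put on the log2 scale, then fitted with limma 3.58.1 (R 4.3.3, lmFit and eBayes, no covariates, Benjamini-Hochberg). The fit was tested on simulated data. Correlations used all pairings (Python 3.11.15, numpy 2.4.6), with the two-sided p as double the smaller tail. The number of arrays limits the precision.

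The members and lists were chosen with earlier results of these data known. Named are the 4 miRNAs, relatives by number, mirtrons, the 3 miRNAs closest in pattern to each, neighbors by size of fall, and a list of at least 60% G and C. The test of the arms of mmu-miR-3096b was added later. Sequences came from RefSeq tables (GRCm38.p6) for 875 of 1079 names (81.1%), 840 by exact name and the others by adding an "a" after the number or by the single listed arm. The array design names mm9, so no coordinate was taken from the array files. Alternatives were the deposited values, other scalings, a floor of 1, normexp, detected miRNAs only, the methods' t-test, slide and replicate blocks, each slide, and each array left out.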

Additional observations from a re-analysis of the deposited data

Results flagged for a closer look

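Of the 4 miRNAs and the 2 arms of mmu-miR-3096b, 12 groups of tumors were checked for a single value far from the rest (Dixon's criterion at 95%, by which chance alone marks about 1 in 20 groups), and 3 values stood apart. mmu-miR-3096-5p in control tumor 5 had a deposited log2 value of 9.16, above the next control by 0.644 of the whole range. mmu-miR-3096b-3p was lowest among controls in the same tumor, at 9.13, and highest among curcumin tumors in curcumin tumor 5, at 10.44. In control tumor 5 mmu-miR-3096-5p was thus high and mmu-miR-3096b-3p low. Over the 243 miRNAs detected on all arrays, 16 of the 18 values that stood apart among controls belonged to control tumor 5, of which 5 were high and 11 low. Among curcumin tumors, tumor 5 held 15 high and 10 low ones.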

How the results depend on the processing

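The 81 lower and 90 higher miRNAs became 123 lower with the deposited values, 32 lower with the 75th percentile of all miRNAs, and 39 lower and 10 higher with no normalization. With single arrays left out, the lower count ranged from 38 to 85 and the higher count from 63 to 99. Slide 1 by itself gave 20 lower and 14 higher, and slide 2 by itself 2 lower and 1 higher. With a replicate block, which pairs tumors of the same number, 22 were lower and 45 higher. Deviations of same-numbered tumors correlated at −0.26 to 0.21, which was not tested. The labels do not say whether the numbers pair the tumors. No block changed the direction for any of the 4 miRNAs. The 3 pairs that passed in controls became 0 with the quantile-normalized sums, 0 with the 75th percentile of detected miRNAs, 0 without the 2 farthest tumors, and 0 to 4 with single arrays left out, where every control left out gave 0 and curcumin tumor 2 left out gave 4. With the quantile-normalized sums their r was 0.84, 0.79 and 0.97, in the order given above, each with an adjusted p of 0.05 (exact permutation test). That lies at the threshold, and mmu-miR-711 was at the floor in control tumors 1 and 6. With the 75th percentile their r was 0.90, 0.87 and 0.95 (adjusted p = 0.20, 0.24 and 0.1625 by the same test). On both of those other scales, and on unnormalized sums with a floor of 1, mmu-miR-711 lay at the floor in all curcumin tumors. There 3 pairs had no correlation, and p-values were adjusted over the remaining pairs. On unnormalized sums 3 pairs passed, of which 1, mmu-miR-3096-5p with mmu-miR-5103, was among the 3 of the deposited values. With 1 or 2 controls left out, the exact test has too few pairings for these 3 pairs to pass by themselves. Those counts of 0 therefore say nothing about the strength of the relations. The r of mmu-miR-1224-5p and mmu-miR-5103 in controls turned to −0.30 without the 2 farthest tumors. By Pearson's r none of 8 relations with the number detected passed, against 1 with the summed signal (mmu-miR-1224-5p in curcumin tumors) and 3 on unnormalized values (all but mmu-miR-711 in controls). By rank none passed in any of these settings. The r of mmu-miR-1224-5p turned to 0.76 in curcumin tumors without the 2 farthest, and in controls ran from −0.25 to 0.84 with single tumors left out. The difference of mmu-miR-702 was −0.14 with the 75th percentile of detected miRNAs, −0.15 unnormalized, and −0.060 to 0.22 with single arrays left out. For the rest of these the cause was not tested. The normexp alternative, chosen after seeing the data, took the median spot signal, the column at hand, in place of the mean spot signal that had been planned, and the separate slides and the leaving out of control tumor 5 for the correlations were also added then. Signal over background limits what can be said of mmu-miR-711 and mmu-miR-5103.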
